A study of Sus scrofa with 6 samples.

Results

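Small leucine-rich proteoglycans are secreted matrix proteins whose core is a chain of leucine-rich repeats. They bind collagen fibrils, set how thick the fibrils grow and how they are spaced, and hold growth factors such as TGF-beta in the matrix. In cartilage they lie around and between the collagen fibrils, beside the much larger aggrecan. The genes taken were LUM, PRELP, OPTC and ASPN, with DCN, BGN, FMOD and OGN where the array's annotation held them. Probe sets were found for 6 of these 8 genes, 7 probe sets of 23999 in all, and all 6 genes were among the 5601 genes compared. FMOD and OGN were not analysed here.

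Growth plate cartilage of pigs, where growing bones lengthen, was measured beside articular cartilage of pigs, which forms the surface of joints. Each was measured as native tissue and as chondrocytes released with collagenase and cultured without added factors, harvested on differentiation days 10 and 20, with 1 array for each of the 6 conditions. The cells grew in DMEM/Ham's F12 with fetal bovine serum and antibiotics, at 37 °C in 5% oxygen and 5% carbon dioxide. Age, breed and number of animals are not stated in the labels, nor whether the arrays of a tissue share animals. No condition was replicated, so a difference between single arrays had no replicate check.

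Of 8 chondrocyte markers, 6 were annotated (COL2A1, ACAN, SOX9, COL11A1, HAPLN1 and COMP), and all 6 lay above the floor on every array. The floor was a signal of 36.1, the 40th percentile of all signals, below which signals were set equal to it. Of the 6 markers of hypertrophic chondrocytes, 6, 6 and 6 lay above the floor in native, day 10 and day 20 growth plate samples, and 4, 3 and 4 in articular samples. Annotated were 4 of 5 markers of osteoblasts, 5 of 5 of endothelium and 3 of 6 of leukocytes and osteoclasts. For erythroid cells, adipocytes and muscle, 3 of 3, 2 of 3 and 2 of 4 were. Each of these lists had 0 to 2 members above the floor on any array. Those above it included HBB of erythroid cells, at 234 to 610 over the arrays, and PECAM1 of endothelium, at 277 in native articular cartilage. MYL1 of muscle had 280 in day 10 growth plate cultures. Whether such cells were present was not tested. The native articular array was the least like the others, correlating with them at a mean Pearson r of 0.889 over the 5601 genes, where each other array had 0.930 to 0.939. Because the samples are bulk RNA, a smaller share of a cell type and less RNA per cell cannot be told apart.

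Among the small leucine-rich proteoglycans, LUM and ASPN varied most over the 6 arrays. Both were low in native articular cartilage and highest at day 20 of culture. DCN was highest at day 20 of growth plate culture, BGN and PRELP were far above the floor on every array, and OPTC was near or under the floor throughout. The ratio of the highest to the lowest array was at least 298-fold for LUM, 242-fold for ASPN, 5.54-fold for DCN, 2.45-fold for BGN and 1.34-fold for PRELP. For OPTC it was at least 2.15-fold. Of all 5601 genes, 43.2% had a ratio under 2-fold, 5.16% had one no larger than that of PRELP, and 61.6% one no larger than that of BGN.

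**Figure D1:**
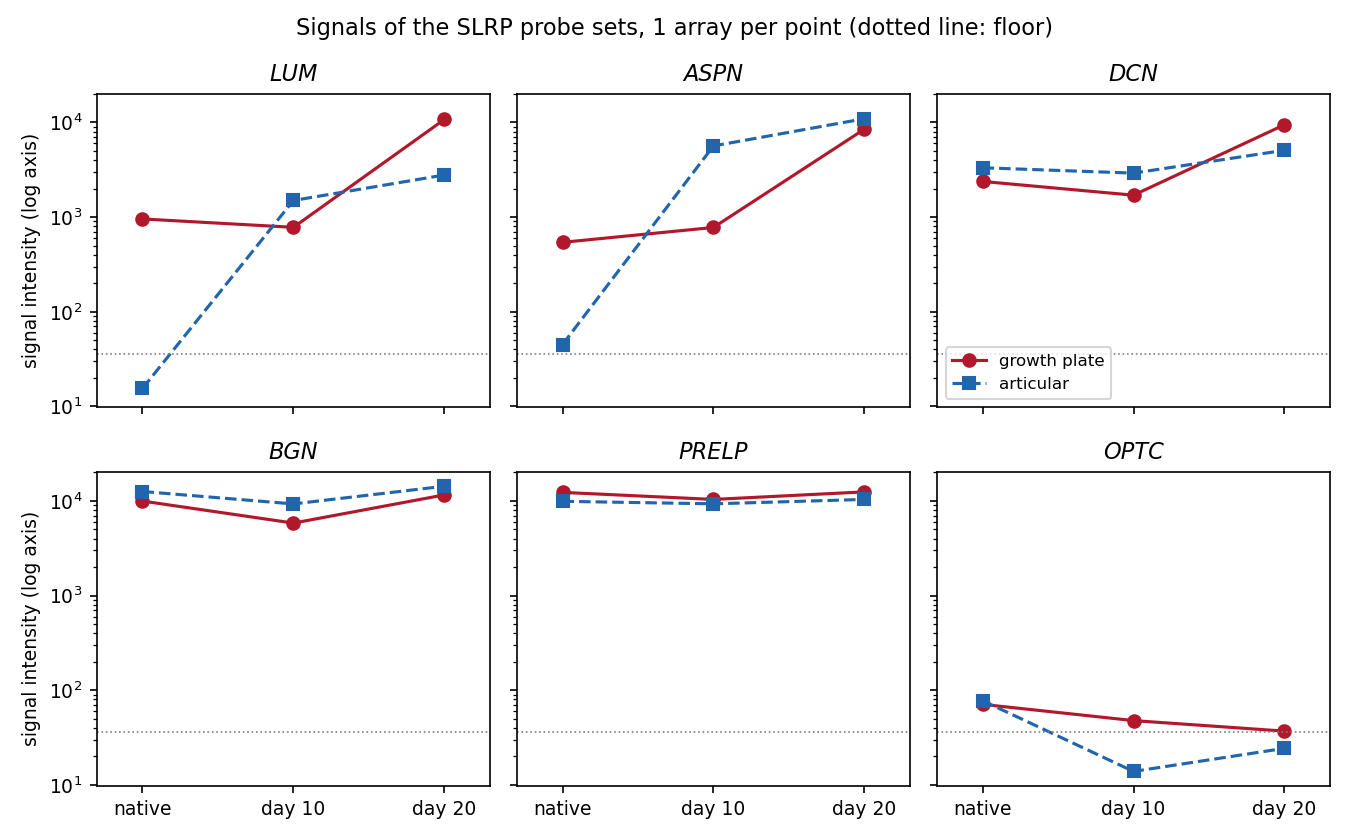
Signal intensity of the probe set used for each gene (vertical log axis) at the native stage, day 10 and day 20, with growth plate as circles and articular as squares, 1 array per point and the floor of 36.1 as a dotted line. In native articular cartilage LUM lies under the floor and ASPN just above it. Their highest signals are 10749 and 10935, while PRELP stays between 9304 and 12445.

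LUM encodes lumican, a keratan sulfate proteoglycan that limits the thickness of collagen fibrils. Its signals were 956, 780 and 10749 in native, day 10 and day 20 growth plate samples, against 15.5, 1498 and 2784 in articular samples. The native articular array was the lowest and lay under the floor, and the day 20 growth plate array was the highest. LUM was higher in growth plate than in articular cartilage by at least 26.5-fold in native tissue. At day 10 it was 1.92-fold lower in growth plate cultures, and at day 20 it was 3.86-fold higher. The order of the tissues at day 10 was therefore opposite to that in native tissue and at day 20.

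ASPN encodes asporin, a relative of decorin that has a run of aspartates at its start, carries no glycosaminoglycan chain and binds collagen and TGF-beta. Its signals were 541, 777 and 8482 in growth plate samples, against 45.1, 5643 and 10935 in articular samples. The native articular array was again the lowest, just above the floor. In native tissue ASPN was higher in growth plate than in articular cartilage by 12.0-fold, and it was 7.26-fold lower in growth plate than in articular cultures at day 10. At day 20 it was 1.29-fold lower in growth plate cultures. At day 10, 0.143% of the 5601 genes had a lower ratio of growth plate to articular signal than ASPN.

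DCN encodes decorin, which decorates collagen fibrils and binds TGF-beta. Its signals were 2379, 1703 and 9444 in growth plate samples, against 3319, 2914 and 5075 in articular samples. DCN was 1.39-fold lower in growth plate in native tissue and 1.71-fold lower at day 10, but 1.86-fold higher at day 20. The second DCN probe set, with the accession CF367795, had signals of 0.269 to 18.2 and lay under the floor on all 6 arrays. Every DCN value therefore rests on 1 probe set, designed to NM_213920.

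BGN encodes biglycan, a close relative of decorin that binds collagen and BMPs and, once released from the matrix, the receptors TLR2 and TLR4. Its signals were 9948, 5826 and 11564 in growth plate samples, against 12556, 9281 and 14274 in articular samples. BGN was lower in growth plate at every stage, by 1.26-fold in native tissue, 1.59-fold at day 10 and 1.23-fold at day 20. Under quantile normalization the native difference turned to 0.031 on the log2 scale. Taken over the stages, the ranges of growth plate and articular samples overlapped.

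PRELP encodes prolargin, which links collagen to heparan sulfate chains such as those of perlecan. It had signals of 12292, 10353 and 12445 in growth plate samples, against 9892, 9304 and 10359 in articular samples. At each stage it was higher in growth plate, by 1.24-fold, 1.11-fold and 1.20-fold. The highest signal of any probe set on an array was 19960 to 27967. Whether signals as high as those of PRELP and BGN still respond in proportion to RNA was not tested.

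OPTC encodes opticin, a member of this family best known from the vitreous of the eye and also found in cartilage. Its signals were 70.9, 47.8 and 37.0 in growth plate samples, against 77.6, 13.9 and 24.3 in articular samples. Both native arrays were the highest, and both articular cultures lay under the floor. In native tissue OPTC was 1.09-fold lower in growth plate than in articular cartilage. In culture the growth plate signals were at least 1.32-fold higher at day 10 and at least 1.02-fold higher at day 20.

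**Figure D2:**
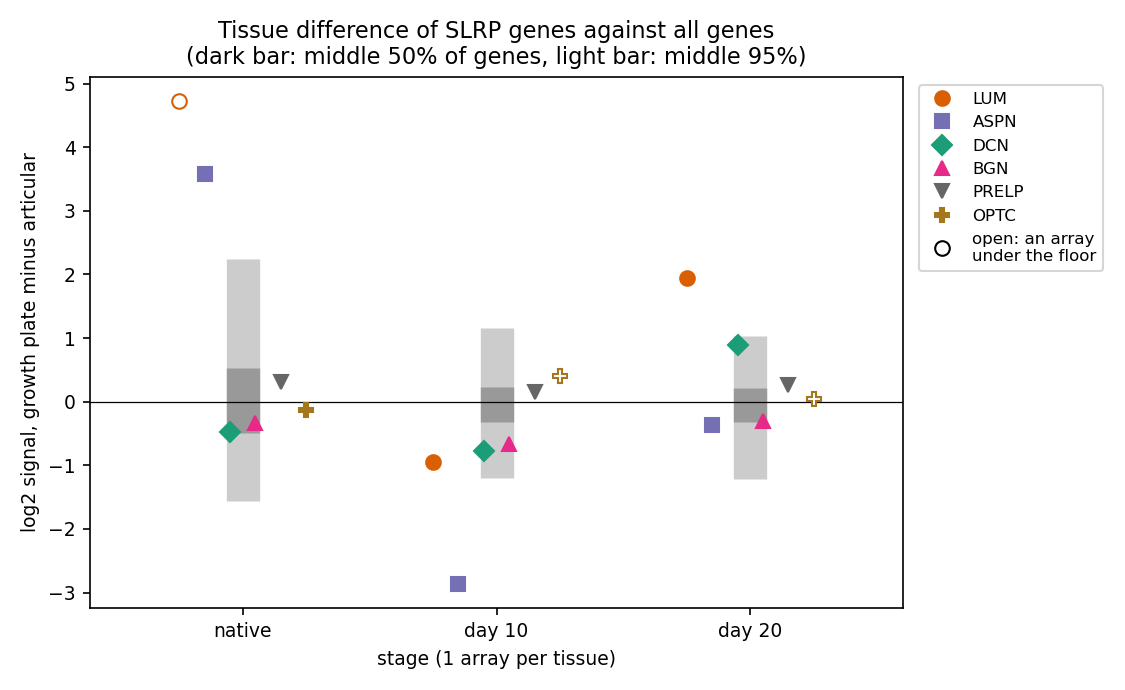
Log2 signal of growth plate minus articular samples for the 6 genes at each stage, 1 array per tissue, over bars that hold the middle 50% and 95% of all 5601 genes. LUM and ASPN lie above the light bar in native tissue, ASPN lies below it at day 10 and LUM lies above it at day 20, and open symbols mark pairs with an array under the floor.

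The first comparison asked which genes differed between growth plate and articular samples over all stages. No small leucine-rich proteoglycan passed the test: limma called 0 of 6 where a call needed a 2-fold difference and a Benjamini-Hochberg adjusted p under 0.05, and it called 0.0536% of all genes. Among the 6, 1 had an unadjusted p under 0.05, where 10.7% of all genes had one. The fitted log2 difference was 1.91 ± 0.98 (SE) for LUM, with native articular cartilage set to the floor and a limma adjusted p of 0.525, and 0.12 ± 1.12 for ASPN, with 0.976. For LUM it was 0.50 without either native array and 3.34 without either day 10 array, and LUM was called in none of these fits. The residual of this fit is the difference between stages in the tissue effect, which was large for both genes. BGN had the smallest unadjusted p of the 6, with a limma adjusted p of 0.452 for a log2 difference of -0.44 ± 0.15. PRELP, DCN and OPTC had log2 differences of 0.24, -0.12 and 0.10.

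In pairs of single arrays, 2 of the 6 genes (LUM and ASPN) were higher in growth plate by at least 2-fold in native tissue and 0 at least 2-fold lower, where 12.9% and 7.91% of all genes were. At day 10, 0 of 6 were at least 2-fold higher in growth plate cultures and 1 (ASPN) was at least 2-fold lower, against 3.43% and 3.89% of all genes. At day 20, 1 (LUM) was higher and 0 were lower, against 2.82% and 4.09%. The median log2 difference over the 6 genes was 0.09 in native tissue, -0.72 at day 10 and 0.15 at day 20. Over all genes it was -0.0049, -0.034 and -0.040.

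Cultured chondrocytes were next set against native cartilage. LUM and ASPN had the largest differences of the 6 genes, and OPTC was lower in culture. LUM was 1.23-fold lower at day 10 than in native growth plate and 11.2-fold higher at day 20, while articular cultures had at least 41.5-fold and at least 77.1-fold more than native. ASPN was 1.44-fold and 15.7-fold higher than native in growth plate cultures, and 125-fold and 242-fold higher in articular cultures. At day 20, 99.9% of all genes had a lower ratio to native tissue than ASPN in growth plate and 99.98% in articular samples.

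Over both tissues the fitted log2 change of culture against native was 4.85 ± 1.19 for ASPN, with a limma adjusted p of 0.148. It was 3.71 ± 1.04 for LUM, with 0.165, and -0.93 ± 0.24 for OPTC, with 0.157. DCN, BGN and PRELP had 0.48, -0.20 and -0.06, with limma adjusted p-values of 0.493, 0.530 and 0.839. limma called 0 of the 6 genes and 0% of all genes, and an unadjusted p under 0.05 was found for 3 of 6, against 19.4% of all genes. The fitted change of LUM takes native articular cartilage at the floor, and that of OPTC takes both articular cultures there, so the standard errors leave out any spread below it.

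Calls of these genes moved with the arrays that were fitted. Without the native growth plate array, LUM and ASPN were called higher in culture, at log2 changes of 5.82 and 7.44 and limma adjusted p-values of 5.82e-05 and 3.86e-06, where 20.9% of all genes were called. That fit rests on native articular cartilage alone. Without the native articular array, only ASPN was called among the 6, at 2.25 and a limma adjusted p of 0.0228, where 3.79% of all genes were called. LUM had 1.60 in that fit, with a limma adjusted p of 0.131. Without the day 10 growth plate array both were called again, at 4.78 for LUM and 5.96 for ASPN, with a limma adjusted p of 0.0255 for each, where 0.379% of all genes were called. Without the day 20 growth plate array ASPN alone of the 6 was called, at 5.03 and a limma adjusted p of 0.0274, where 1.88% of all genes were. Without the day 10 articular array 0 of the 6 were called, against 0.126% of all genes, and LUM had 2.64 and ASPN 3.73. Without the day 20 articular array 0 of the 6 were called, against 0.325%, and LUM had 3.72 and ASPN 4.66.

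Day by day, 3 of the 6 genes (LUM, ASPN and DCN) were at least 2-fold higher at day 20 than in native growth plate and 0 at least 2-fold lower, against 4.57% and 5.71% of all genes. In articular samples 2 (LUM and ASPN) were, against 14.9%, and 1 (OPTC) was at least 2.15-fold lower, against 8.86% of genes at least 2-fold lower. Of the growth plate cultures at day 10, 0 of 6 genes were at least 2-fold higher or lower than native, against 7.43% and 6.86% of all genes. In articular cultures at day 10, 2 (LUM and ASPN) were higher, against 16.1%, and 1 (OPTC, at least 2.15-fold) was lower, against 9.59%. LUM and ASPN were thus far above native tissue at day 10 in articular cultures, and at day 20 in both.

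**Figure D3:**
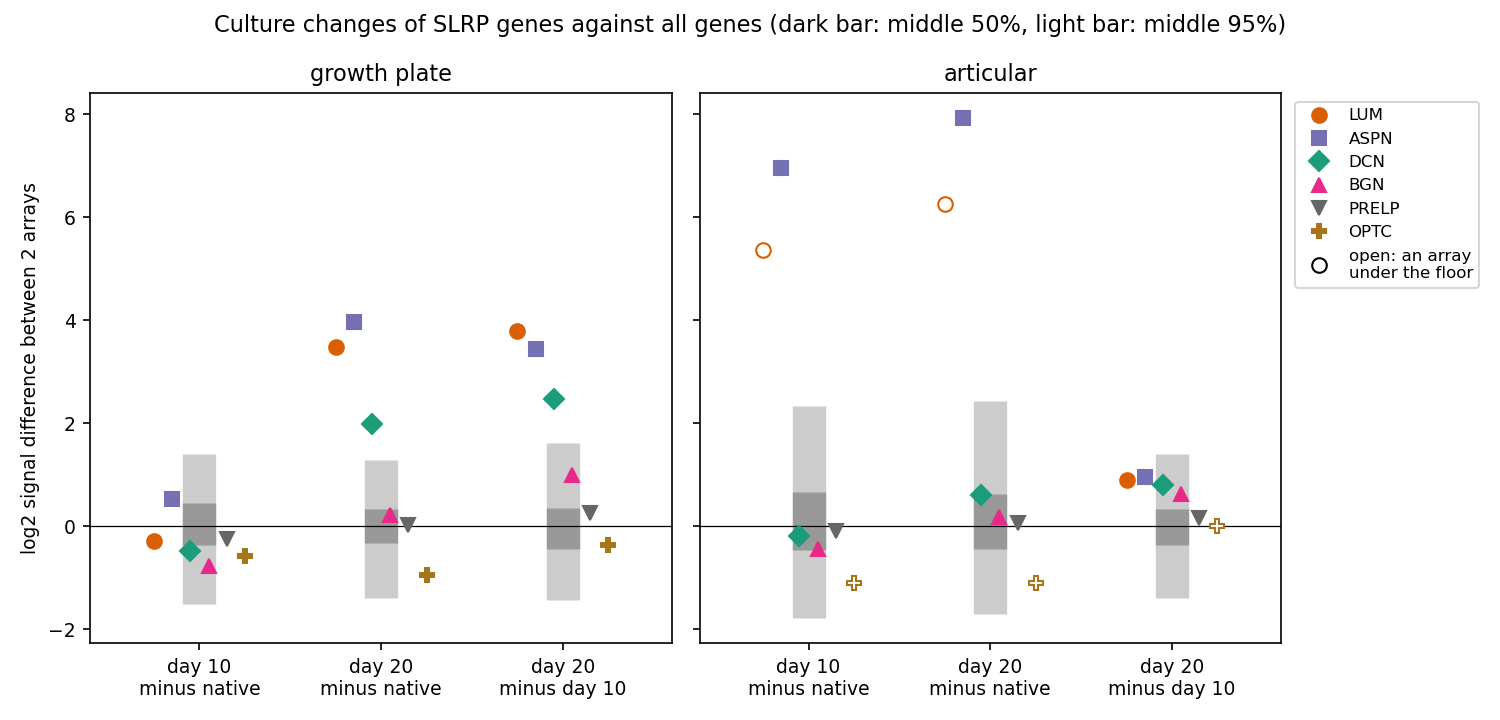
Log2 signal differences between 2 arrays of the same tissue for the 6 genes (day 10 minus native, day 20 minus native, day 20 minus day 10), growth plate left and articular right, over bars that hold the middle 50% and 95% of all 5601 genes. LUM and ASPN relative to native tissue lie far above the light bar at day 20 in both tissues but at day 10 only in articular samples, and DCN lies above it at day 20 in growth plate only; open symbols mark pairs with an array under the floor.

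LUM, ASPN, DCN and BGN were higher at day 20 than at day 10 of culture in both tissues. LUM was 13.8-fold higher at day 20 in growth plate and 1.86-fold in articular cultures, and ASPN was 10.9-fold and 1.94-fold higher. DCN was 5.54-fold and 1.74-fold higher, and BGN 1.98-fold and 1.54-fold. PRELP was 1.20-fold and 1.11-fold higher, and OPTC was 1.29-fold lower in growth plate and under the floor on both articular arrays. Under quantile normalization PRELP turned direction, with log2 changes of -0.0036 for growth plate and -0.015 for articular cultures. Of all genes, 33% were higher at day 20 in both tissues by any amount. At least 2-fold higher were 3 of 6 in growth plate cultures (LUM, ASPN and DCN), against 6.61% of all genes, and 0 of 6 in articular cultures, against 5.78%. In neither tissue was any of the 6 at least 2-fold lower, against 7.07% of all genes in growth plate and 5.57% in articular cultures. The median log2 change of the 6 was 1.73 in growth plate and 0.71 in articular cultures, where over all genes it was -0.024 and 0. That the gain was larger in growth plate cultures was not tested, since each tissue had 1 array a day.

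In the fit to all 6 arrays limma called 0 of the 6 genes and 0% of all genes between the days. An unadjusted p under 0.05 was found for 2 of the 6, against 14.6% of all genes. DCN had a log2 change of 1.64 ± 0.41 with a limma adjusted p of 0.221, and BGN 0.81 ± 0.19 with 0.196. LUM and ASPN had 2.34 ± 1.20 and 2.20 ± 1.37, with limma adjusted p-values of 0.431 and 0.509. Without the day 10 growth plate array LUM had 0.20 and ASPN -0.034, and without the day 10 articular array LUM had 4.48 and ASPN 4.44. DCN ranged from 0.87 without the day 20 growth plate array to 2.40 without the day 20 articular array. In these 4 fits 0 of the 6 were called, against 0% to 0.0541% of all genes.

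When limma was fitted to only the 4 cultured arrays, LUM, ASPN and DCN were called higher at day 20. Their log2 changes were the same as above, with standard errors of 0.44, 0.38 and 0.28 and limma adjusted p-values of 0.00373, 0.00214 and 0.00203. The 3 calls of 6 stand against 4.66% of 5475 genes called higher, and 0 of 6 were called lower, against 4.6%. BGN, at 1.75-fold, had a limma adjusted p of 0.00129 but did not reach 2-fold. Its variance had 1 residual degree of freedom and 11.6 from the prior, which is estimated over all genes. From their own residual alone the standard errors would be 1.45 for LUM, 1.25 for ASPN and 0.84 for DCN. In the same fit ASPN was called lower in growth plate than in articular cultures, with a limma adjusted p of 0.0364 for a log2 difference of -1.61, where 1.52% of genes were called lower and 1.19% higher. Fitted without the native articular array it was called as well, with a limma adjusted p of 0.0497, but not without the native growth plate array, with 0.0676.

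The order of the conditions differed from gene to gene. LUM was highest in day 20 growth plate, then in day 20 articular, day 10 articular, native growth plate, day 10 growth plate and native articular samples. For ASPN the order was day 20 articular, day 20 growth plate, day 10 articular, day 10 growth plate, native growth plate and native articular. DCN had its highest signals on the day 20 arrays, growth plate before articular, and its lowest in day 10 growth plate. With 1 array per condition, whether neighbours in these orders differ beyond their spread is not known.

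Profiles were compared by the root mean square difference of log2 signals, each centred on its own mean over the 6 arrays. LUM and ASPN lay 1.07 apart, LUM and DCN 2.18, ASPN and DCN 2.48, DCN and BGN 0.58, and PRELP and OPTC 0.47. The smallest distance of the 15 pairs was 0.43, between PRELP and BGN. Genes of small range lie close by this measure whatever their profile. Pearson r over the 6 arrays was 0.11 for PRELP and BGN and 0.13 for PRELP and OPTC, against 0.92 for LUM and ASPN. By gene order LUM and DCN are adjacent protein-coding genes on the pig assembly Sscrofa11.1, and PRELP and OPTC are adjacent too. Over the 6 arrays LUM spanned at least 298-fold and DCN 5.54-fold, and OPTC spanned at least 2.15-fold and PRELP 1.34-fold. The centred profiles share arrays and scaling, and values at the floor are equal by construction.

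The genes nearest to LUM were DKK3, a secreted protein of WNT signalling, F3, the tissue factor that starts coagulation, and SLC2A5, a fructose transporter, at distances of 0.73, 0.81 and 0.85. Nearest to ASPN were PDLIM1, an adaptor of actin stress fibres, at 0.76, TMEM158, a RAS-induced membrane protein, at 1.10, and GUCY1B3, a subunit of the nitric oxide receptor guanylate cyclase, at 1.19. PDLIM1 had signals of 197, 699 and 2566 in growth plate samples, against 31.3, 1142 and 4139 in articular samples. Nearest to DCN were PSME2, a proteasome activator subunit, SQOR, a mitochondrial enzyme of sulfide oxidation, and FAM114A1, at 0.31, 0.32 and 0.34.

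**Figure D4:**
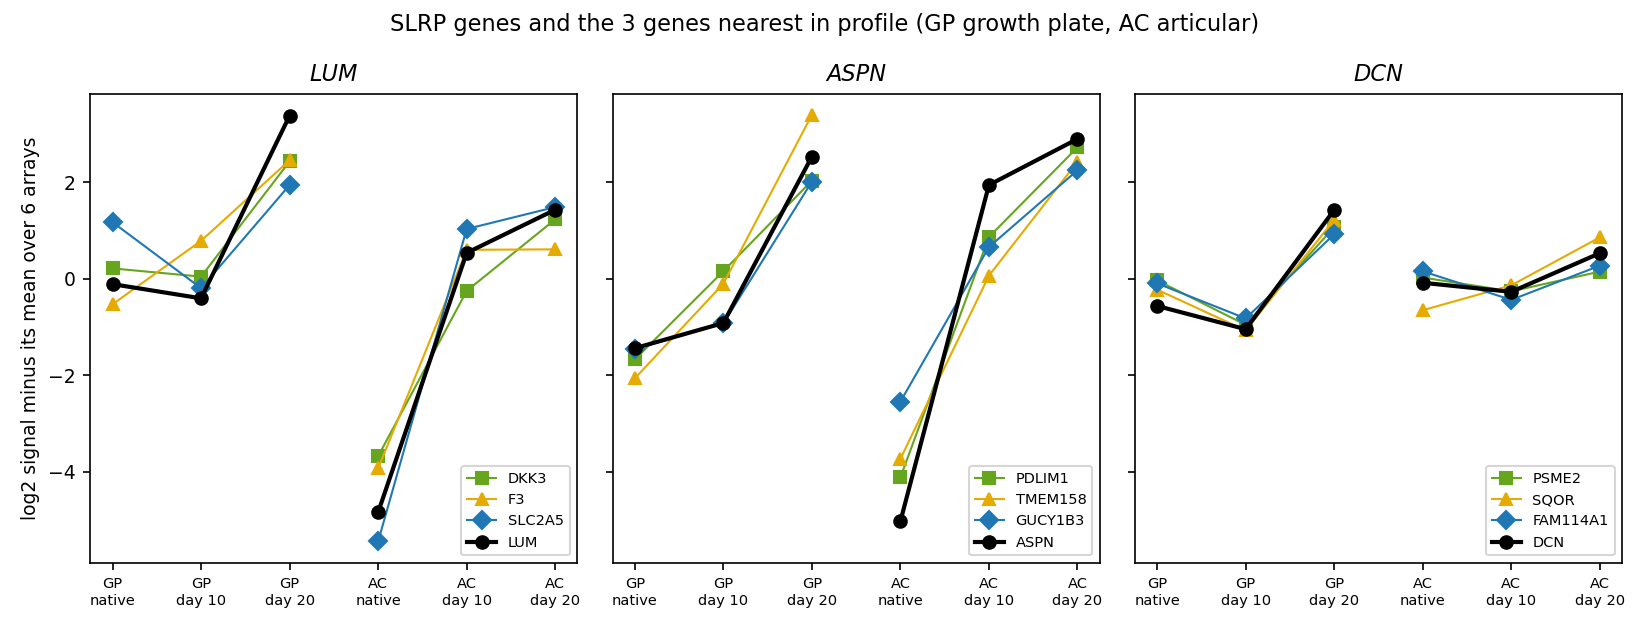
Log2 signal minus its mean over the 6 arrays for LUM, ASPN and DCN (black) and the 3 genes nearest to each, with growth plate (GP) left of articular (AC) in each panel, 1 array per point and signals under the floor set to it. The genes near LUM and ASPN share their lowest value in native articular cartilage, and those near DCN share the high value at day 20 in growth plate.

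Fibroblast and perichondrium markers were examined beside LUM and ASPN. Of 9 such markers, 5 were annotated (COL1A2, COL3A1, THY1, PDGFRB and POSTN). In native, day 10 and day 20 growth plate samples 5, 4 and 5 of them lay above the floor, with summed signals of 8328, 3722 and 12819. In articular samples 4, 5 and 5 did, with sums of 3103, 9082 and 15008. THY1, a surface glycoprotein of fibroblasts and other mesenchymal cells, made up most of each sum, which was lowest in native articular cartilage and highest at day 20 in both tissues. COL1A2, which encodes a chain of the fibrous type I collagen, had signals of 432, 381 and 2343 in growth plate samples, against 146, 585 and 838 in articular samples, and was lowest in native articular cartilage too. PDGFRB, a receptor of mesenchymal cells, had 1013, 305 and 941 in growth plate samples, against 1059, 839 and 2117 in articular samples, and was lowest in day 10 growth plate samples. POSTN, a matrix protein of perichondrium and tendon, had 38.8, 12.9 and 161 in growth plate samples, against 22.1, 84.7 and 949 in articular samples. COL3A1 had 262, 129 and 406 in growth plate samples, against 58.0, 157 and 473 in articular samples. The markers thus did not share 1 profile. POSTN lay under the floor in day 10 growth plate and native articular samples, and the other annotated markers lay above it on every array. COL1A1, TNMD, SCX and MKX of the list were not annotated, so they were not measured. The part of these cells in the LUM and ASPN values was not tested.

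The collagens that these proteoglycans bind were tested as a list, with 9 of 17 measured. limma called 0 of the 9 in any of the comparisons, growth plate against articular, culture against native and day 20 against day 10. In that order it called 0.0536%, 0% and 0% of all genes, which stands beside the lists below too. An unadjusted p under 0.05 was found for 4, 5 and 5 of the 9, against 10.7%, 19.4% and 14.6% of all genes. Between the days 4 of 9 had a fitted change of at least 2-fold higher and 0 lower, with a median log2 change of 0.92, where the median of all genes was -0.024 and 4.91% were at least 2-fold higher. COL5A3, a minor chain of fibrils, had a log2 change of 1.88 ± 0.42 (SE) with day 10 articular cultures set to the floor, COL3A1, the type III collagen of soft tissue, 1.62 ± 0.67, and COL1A2 1.57 ± 0.58. COL6A2, a chain of the pericellular type VI collagen that binds biglycan and decorin, was lower in culture at 879 and 2259 (day 10 and day 20) against 4356 in native growth plate, and at 2864 and 3400 against 7875 in native articular cartilage. Its fitted log2 change was -1.48 ± 0.27, with a limma adjusted p of 0.113.

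Among other proteoglycans and their partners 6 of 15 were measured, and 0 were called by limma in any of these comparisons. An unadjusted p under 0.05 was found for 1, 3 and 1, against 10.7%, 19.4% and 14.6% of all genes. VCAN, which encodes versican, the large proteoglycan of loose and developing tissue, had signals of 84.8, 136 and 1312 in growth plate samples, against 92.0, 457 and 2489 in articular samples. Its log2 change of culture against native was 2.93 ± 0.39, with a limma adjusted p of 0.101. ACAN, which encodes aggrecan, had signals of 14874, 12466 and 6596 in growth plate samples, against 15883, 10781 and 10267 in articular samples, a log2 change of -0.65 ± 0.21 in culture. TSKU, a leucine-rich repeat protein that modulates BMP and WNT signalling, was the only measured gene of 10 other members of the wider family, with log2 differences of -0.18, 0.30 and 0.48 in the comparisons in the same order. The other TSKU probe set, above the floor on all 6 arrays, had -0.41, -0.033 and 0.34.

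Enzymes that build glycosaminoglycan chains had small fitted changes, with 12 of 34 measured. limma called 0 of them in any comparison, and no fitted change reached 2-fold. The largest, that of CHST15 between the days, was -0.91 ± 0.46 on the log2 scale. Unadjusted p-values under 0.05 numbered 0, 2 and 1, against 10.7%, 19.4% and 14.6% of all genes. UST, a uronyl sulfotransferase of dermatan and chondroitin sulfate, had the largest difference between culture and native tissue, a log2 change of 0.79 ± 0.31. CHST14, which sulfates the dermatan sulfate chains that decorin carries, had 0.61 ± 0.27, and UXS1, which makes the UDP-xylose for the first sugar of the chain, had -0.70 ± 0.25.

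Proteases that cut these proteins, and their inhibitors, had 12 of 17 measured and 0 called by limma. Unadjusted p-values under 0.05 numbered 4, 3 and 3, against 10.7%, 19.4% and 14.6% of all genes. ADAMTS1 had the largest fitted log2 difference of the list between growth plate and articular samples, 2.72 ± 0.91, with a limma adjusted p of 0.452. MMP13 had 2.69 ± 0.52 with both articular cultures set to the floor, and a limma adjusted p of 0.317. MMP3, a stromelysin that cleaves decorin, had a signal of 48.3 in native growth plate against 4319 in native articular cartilage, and lay under the floor in all cultures. MMP2, a gelatinase, had signals of 4381, 1606 and 4120 in growth plate samples, against 3232, 2251 and 3998 in articular samples, a log2 change of 1.09 ± 0.27 between the days. HTRA1, a serine protease that cleaves several small proteoglycans, had 1.06 ± 0.25.

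Ligands and receptors of the small leucine-rich proteoglycans had 16 of 32 measured and 0 called by limma. Unadjusted p-values under 0.05 numbered 6, 4 and 3, against 10.7%, 19.4% and 14.6% of all genes. TGFB3, a TGF-beta ligand, had signals of 911, 486 and 610 in growth plate samples, against 143, 2329 and 2794 in articular samples. A second TGFB3 probe set had signals of 18.8 to 80.0, with a log2 change of culture against native of 0.20 against 1.71 for the one used. The largest log2 difference of the list between growth plate and articular samples was that of TGFB2, another TGF-beta ligand, at 1.71 ± 0.20. Its limma adjusted p was 0.126, and its other probe sets had 1.77 to 1.97. TLR2, a receptor of soluble biglycan, had a log2 difference between growth plate and articular samples of -1.19 ± 0.32, with a limma adjusted p of 0.409. VEGFA, a growth factor of blood vessels, had a log2 change of 1.92 ± 0.20 between the days, with a limma adjusted p of 0.151. The other 2 VEGFA probe sets above the floor had 0.26 and 1.79.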

How the data were processed

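Total RNA of 6 samples was hybridised to Affymetrix porcine arrays, with biotinylated cRNA from 100 ng of total RNA, per the labels' protocols. Each deposited value is the linear signal intensity of a probe set. GCOS 1.4 is named in the submitters' processing notes, and the scaling target and algorithm settings are not given in the sources used here. The mean with the top and bottom 2% left out was 400.1 on each array, so the values were not normalized again. Detection calls were not used.

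Of 24123 probe sets, 124 controls were left out, and 10069 of the rest had 1 gene symbol in the platform annotation, 198 several and 13732 none. Of the 10069, 9961 had an entry in the RefSeq table of Sscrofa11.1, used for names and gene order only. The floor was the 40th percentile of all signals, and log2 was taken of each signal or, if larger, of the floor. Each of 6765 genes was represented by its probe set of highest mean, and a gene was kept when at least 2 arrays exceeded the floor. An additive model of tissue and stage was fitted with limma 3.58.1 (R 4.3.3), with an intensity trend. Its variance had 2 residual and 3.74 prior degrees of freedom. The fit was tested on simulated data. Those held independent noise and a tissue shift equal at all stages, unlike the values of LUM and ASPN. Where an array lies under the floor, folds are lower bounds. The number of arrays limits the precision. With 1 array per condition, p-values judge an effect against the departure from a sum of tissue and stage effects, and the prior. No spread between replicates enters them.

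All probe sets of the 6 genes were described. Other genes were named by rule: the measured genes of the wider family, up to 3 of each list with the largest fitted change, and the 3 genes nearest in profile to each member. Cell type markers were named where their list is described. The members and lists were chosen with earlier results of these data known. The alternatives were other normalizations, floors, filters, probe set summaries and prior variance, leaving out each array, and a fit to the 4 cultured arrays. Figures were drawn with matplotlib 3.10.9.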

Additional observations from a re-analysis of the deposited data

Results flagged for a closer look

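Differences between the tissues that had opposite directions at 2 stages, and lay at least 4-fold apart, were found for LUM and ASPN. The difference between stages was not tested, since each condition had 1 array. For LUM, the log2 difference of growth plate minus articular was at least 4.73 in native tissue and -0.94 at day 10, which is at least 5.67 apart, and 1.95 at day 20, which is 2.89 from day 10. For ASPN, it was 3.58 in native tissue, -2.86 at day 10 and -0.37 at day 20, so that the native difference lay 6.44 from that at day 10 and 3.95 from that at day 20. Both native differences rest on the native articular array, which was the least like the others.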

How the results depend on the processing

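No paired analysis was possible because each condition had 1 array and the labels give no replicate numbers. With all 6 arrays, the alternatives were of normalization, floor, filter, probe set summary and prior variance. They called 0% to 0.143% of all genes for growth plate minus articular and 0% to 0.161% for culture minus native. Between the days they called 0%. A floor at the 60th percentile left out OPTC, and the filter for all 6 arrays above the floor left out LUM and OPTC. Counts of called small leucine-rich proteoglycans were 0 in each comparison in the main fit, and stayed 0 under every one of these alternatives. Leaving out 1 array gave 0 to 1 for growth plate minus articular, 0 to 2 for culture minus native and 0 to 3 for day 20 minus day 10, where 0.0361% to 2.55%, 0.126% to 20.9% and 0% to 9.06% of all genes were called. The fit to the 4 cultured arrays gave 1 and 3 for the first and last. Fits without either native array draw the tissue and day effects from those same 4 arrays and are no separate check. Of 291 fitted log2 changes under alternatives, 257 kept direction and side of the threshold, 15 passed it in the same direction and 19 turned direction, 2 of which passed it too (ASPN for growth plate minus articular), all of the 19 from values under 0.3 in size except ASPN between the days. For growth plate minus articular, OPTC had -0.012 with quantile normalization and -0.0085 with median centring. ASPN had -0.41 with a floor at the 60th percentile, -0.0038 with a pseudocount of 16 and -1.61 in the 4 cultured arrays, where DCN had 0.061. Without single arrays LUM lay between 0.50 and 3.34, ASPN between -1.61 and 1.61, DCN between -0.63 and 0.21 and OPTC between -0.047 and 0.22. For day 20 minus day 10, PRELP had -0.0094 with quantile normalization, and OPTC 0.16 with a floor at the 25th percentile and 0.082 with the pseudocount. Without single arrays OPTC lay between -0.41 and 0.041 and ASPN between -0.034 and 4.44, its lowest without the day 10 growth plate array. The cause was not tested, beyond the arrays left out. Of 126 ratios of single arrays, 112 moved by less than the fitted residual spread and 14 by more, none of at least 2-fold turning direction. Among the 112, ratios with both arrays under the floor could not move, as for the second DCN probe set. The spread, and so the movement allowed, was widest for LUM and ASPN.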

Other observations

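BGN and OPTC also had close neighbours in profile, as a description over 6 arrays. Nearest to BGN were TBC1D20, a regulator of membrane traffic, GALNS, the lysosomal enzyme that removes sulfate from keratan and chondroitin sulfate, and RPS24, a ribosomal protein, at root mean square log2 distances of 0.06, 0.07 and 0.08. The other TBC1D20 probe set had a log2 difference between growth plate and articular samples of 0.31, against -0.42 for the one used. GALNS had signals of 213, 135 and 253 in growth plate samples, against 302, 193 and 329 in articular samples, lowest at day 10 in both tissues as BGN was. Nearest to OPTC were NEK9, a kinase of mitosis, PDIA4, a folding enzyme of the endoplasmic reticulum, and PIGL, at 0.09, 0.10 and 0.14, with higher signals in native tissue than in culture. The other NEK9 probe set had a log2 change of culture against native of -0.35, against -0.77 for the one used. In growth plate samples it had 914 in native tissue, 1215 at day 10 and 680 at day 20. Among many genes small distances to a gene of small range arise readily, and no test was run.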
